A study of Mus musculus with 8 samples.

Results

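The response of liver RNA to bile duct ligation (BDL) in mice labelled HO-1 deleted is described here, from 4 of the 8 libraries of the series. The libraries were chosen by their labels: 2 control libraries and 2 libraries taken 17 days after BDL, all of the genotype LysM-Cre:Hmoxflfl:Ribotag. Mice of the other 2 groups carried LysM-Cre:Ribotag without the floxed Hmox1 allele, are called wild type here, and were sampled as controls and 17 days after BDL, with 2 libraries each. All 4 groups share the LysM-Cre driver, which is expressed from the Lyz2 locus of macrophages, monocytes and neutrophils, and the RiboTag allele, a floxed Rpl22 that makes an epitope-tagged ribosomal protein where Cre is active, by which ribosomes of those cells can be captured with their RNA. The labels give liver as the tissue, myeloid cells as the cell type and total RNA as the molecule, and do not say in which libraries tagged ribosomes were pulled out. They give no age and do not say that the libraries of a group came from separate animals, and where they did not, p-values reflect the spread of these samples alone, which may be technical. The question named in the design text is the role of macrophage HO-1 in fibrosis of the ligated liver.

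Ligation of the common bile duct blocks bile flow. Bile acids then accumulate, bile duct cells proliferate, stellate cells and portal fibroblasts turn into collagen-producing myofibroblasts, and monocytes enter the liver and become macrophages. HO-1, the product of Hmox1, breaks heme down to biliverdin, iron and carbon monoxide, and is induced in macrophages by heme and by oxidative stress through the transcription factor NRF2.

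Counts other than RN45S, the ribosomal RNA precursor, were 15 and 31.6 M in the controls labelled HO-1 deleted and 15.3 and 3.25 M after BDL. RN45S took 55.6 and 22.6% of all counts in the controls and 38.6 and 66.8% after BDL. BDL replicate 2 was therefore the shallowest library, with 11021 genes at 10 or more counts against 13102 to 14115 in the other 3. Many of the counts led with below are also given without it where they move by more than 1.5 times, but not every such count is. Levels are in CPM, that is counts divided by the library size in M after scaling by trimmed means (TMM), and are compared within a gene only. Xist was at 8 counts or fewer in all 4 libraries and Ddx3y at 197 or more, as in male RNA. In wild type, BDL replicate 1 had 22821 counts of Xist and 0 of Ddx3y, as in female RNA.

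Hmox1 (build mm10, chromosome 8, 75093621 to 75100589) was at 22.5 and 29.9 CPM in the controls and 72.3 and 95.5 CPM after BDL. It rose after ligation (log2 fold change 1.67 ± 0.24, adjusted p = 0.000634, edgeR quasi-likelihood test with Benjamini-Hochberg adjustment over 14147 genes, as for every adjusted p below, with ± giving the SE of a log2 fold change). Below, a gene that rose or fell by a value did so on the log2 scale, and "called" means an adjusted p under 0.05. Its levels were 6.22 and 7.46 CPM in wild-type controls and 26 and 24 CPM in wild type after BDL, lower than in the libraries labelled HO-1 deleted of the same condition. The table gives 1 count per gene, so it does not show whether the floxed part is present, and the libraries are named by their label throughout. Lyz2, the lysozyme gene whose locus holds the Cre, was at 0.128 and 0.212 CPM in the controls and 0.155 and 0.665 CPM after BDL, from 3 to 10 counts a library, and at 11.6 and 8.04 CPM in wild-type controls and 27.3 and 13.2 CPM in wild type after BDL. It was not called (log2 fold change 0.44 ± 0.86, adjusted p = 0.735). Rpl22, the locus of the RiboTag allele, was at 30.1 and 41.9 CPM in the controls and 56.6 and 73.8 CPM after BDL and was not called (log2 fold change 0.85 ± 0.37, adjusted p = 0.107).

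Markers of several liver cell types were present. The Kupffer cell markers Clec4f, at 81.4 and 97.3 CPM in the controls and 67.1 and 91.3 CPM after BDL, and Vsig4, at 12.7 and 13.9 CPM in the controls and 7.89 and 12 CPM after BDL, were detected in all 4 libraries. The hepatocyte gene Alb was at 19851 and 24949 CPM in the controls and 11590.1 and 25156 CPM after BDL, and its groups overlapped. All 32 genes of the hepatocyte list together held, of counts other than RN45S, 10.9 and 12.4% in the controls and 6.53 and 9.41% after BDL. The monocyte gene Ly6c2 had 8 counts or fewer in each library, and Ly6g of neutrophils, at 0.598 and 0.127 CPM in the controls and 0.0387 and 0 CPM after BDL, and Ncr1 of NK cells were at 0 counts in BDL replicate 2. Ms4a1 of B cells was at 0 counts in both BDL libraries. RNA from cells other than myeloid cells was thus counted in all 4 libraries, and its part in the results below was not tested. Fewer cells of a type and less RNA per cell cannot be told apart in these bulk samples.

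After BDL, 2140 of 14147 genes were called higher (15.1%) and 1755 lower (12.4%) at an adjusted p under 0.05. Changes of more than 2-fold were found for 1782 of the genes called higher and 1244 of those called lower, and changes of more than 16-fold for 123 and 87. The CPM of the groups did not overlap for 3883 of the called genes (27.4% of those tested), and 66.2% of all tested genes had groups that did not overlap. Of the 3895 calls, 1170 (30%) held when each of the 4 libraries was left out in turn, 764 of them higher and 406 lower. Without control replicate 1 the count of calls was 1572, and without BDL replicate 1 it was 2320. Scaling by total counts moved the median log2 fold change of all genes to -0.31, from -0.025, and left 918 calls, 441 of them higher. Those totals include RN45S, whose share differed between libraries, and this holds for every count below given with that scaling. Without rRNA genes, and with TMM scaling, 3882 genes were called. The share of the 3895 calls that were higher was 54.9%, against 41.2% on log2(FPKM + 1), where 577 genes were called.

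**Figure D1:**
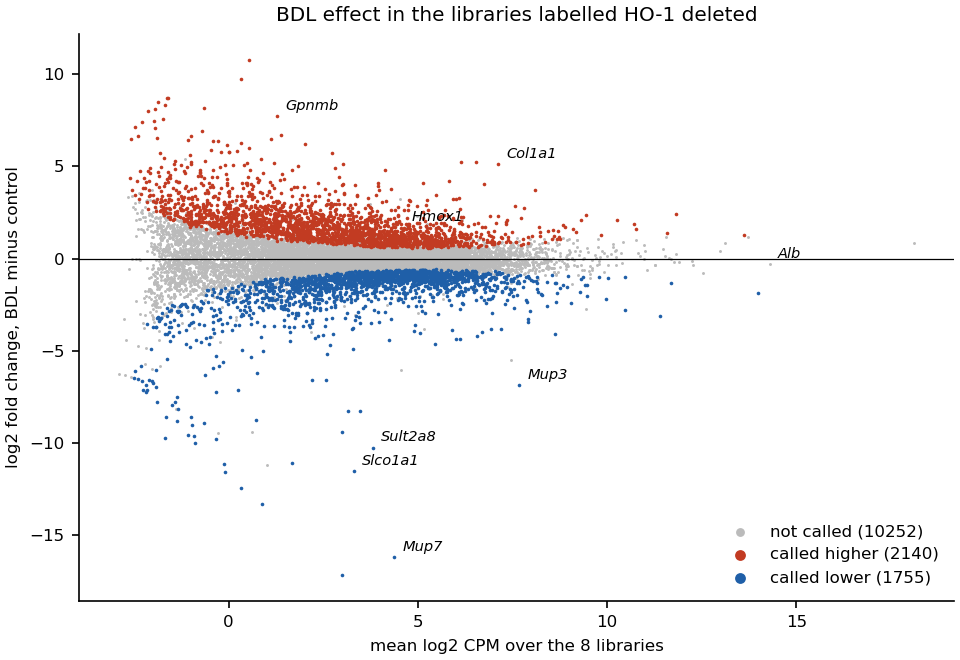
Log2 fold change of each of 14147 genes after BDL in the libraries labelled HO-1 deleted (vertical axis) against its mean log2 CPM over the 8 libraries (horizontal axis). Red points are the 2140 genes called higher, blue points the 1755 called lower and grey points those not called, and the falls reach further from 0 than the rises.

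The genes with the largest rises by the naming rule have varied roles. Gpnmb (chromosome 6, 49036546 to 49070929), a transmembrane glycoprotein of lipid-laden macrophages, was at 0.0855 and 0.254 CPM in the controls and 34.7 and 49.8 CPM after BDL. Both BDL libraries lay far above both controls (log2 fold change 7.74 ± 0.60, adjusted p = 4.57e-05). Cd14, the co-receptor for bacterial lipopolysaccharide, was at 0.684 and 1.88 CPM in the controls and 44.9 and 103 CPM after BDL, with the higher value in BDL replicate 2 (log2 fold change 5.74 ± 0.66, adjusted p = 0.000735). Lcn2, which binds the iron carriers of bacteria, was at 28.9 and 9.86 CPM in the controls and 567 and 913 CPM after BDL (log2 fold change 5.26 ± 0.52, adjusted p = 0.000123). Spp1, the gene of osteopontin, made by bile duct cells and by macrophages, was at 17.1 and 22.4 CPM in the controls and 397 and 1108 CPM after BDL (log2 fold change 5.25 ± 0.73, adjusted p = 0.00136). Its BDL libraries differed from each other by more than its controls did. Mfge8, which bridges dying cells to phagocytes, was at 4.45 and 4.13 CPM in the controls and 74.9 and 168 CPM after BDL (log2 fold change 4.82 ± 0.45, adjusted p = 0.000113). H2-Q1, a nonclassical MHC class I gene with near-identical neighbours that could share its reads, was at 0.427 and 0.593 CPM in the controls and 13.2 and 22.6 CPM after BDL (log2 fold change 5.04 ± 0.44, adjusted p = 5.42e-05).

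The rises of Rasal1, Dnah1 and Cfap44 were next in size after that of Gpnmb by the same rule. Rasal1, a Ras GTPase activator, was at 0.214 and 0.339 CPM in the controls and 35.2 and 26.6 CPM after BDL (log2 fold change 6.72 ± 0.52, adjusted p = 3.97e-05). Dnah1 and Cfap44 encode parts of the motile cilium. Dnah1 was at 0.299 and 0.423 CPM in the controls and 41.9 and 12.4 CPM after BDL (log2 fold change 6.21 ± 0.69, adjusted p = 0.00051), with BDL replicate 1 above BDL replicate 2, and Cfap44 rose by 5.98 ± 0.60. Bmper, which binds bone morphogenetic proteins, rose by 4.65 ± 0.49, the secreted protein gene Scube1 by 4.58 ± 0.48 and the zinc finger gene Zfp469 by 4.79 ± 0.61. All 15 of the largest rises by the rule held without each of the 4 libraries in turn.

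**Figure D2:**
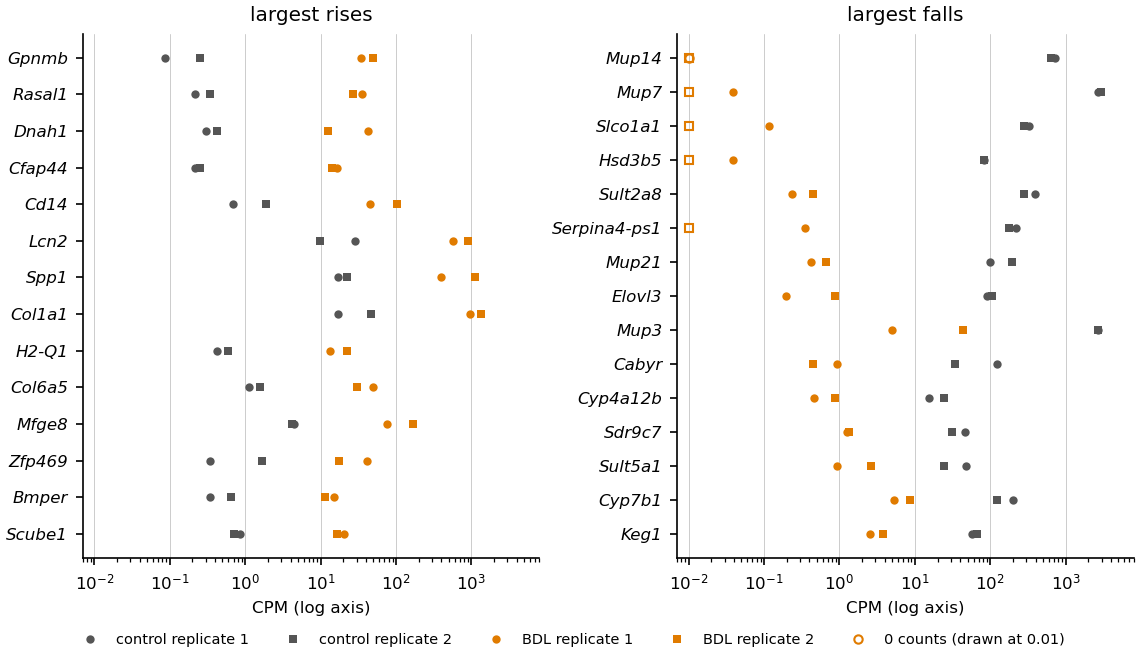
CPM (log axis) of 14 of the 15 genes with the largest rises (left) and the 15 with the largest falls (right) in each of the 4 libraries labelled HO-1 deleted. Grey symbols are controls and orange symbols BDL, circles replicate 1 and squares replicate 2, and open symbols drawn at 0.01 mark 0 counts. No gene shown has overlapping groups, which the naming rule required.

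Matrix genes rose almost throughout, with 91.7% called higher against 15.1% of all genes. Of 36 genes of fibrosis and extracellular matrix, 33 were called higher and 0 lower, with a median log2 fold change of 2.69 against -0.025 over all genes, and 29 calls held without each library in turn. Col1a1, a chain of type I collagen, was at 17.2 and 46.9 CPM in the controls and 948 and 1321 CPM after BDL (log2 fold change 5.14 ± 0.50, adjusted p = 9.26e-05). Tnc, the matrix glycoprotein tenascin-C, was at 1.97 and 3.98 CPM in the controls and 46.9 and 49.2 CPM after BDL (log2 fold change 3.98 ± 0.33, adjusted p = 4.53e-05). Fbn1, a microfibril protein, rose by 2.89 ± 0.27, and Lox, the enzyme that crosslinks collagen and elastin, by 4.79 ± 0.46. Col6a5, a chain of type VI collagen outside the list, was at 1.11 and 1.59 CPM in the controls and 50.3 and 30.6 CPM after BDL (log2 fold change 4.89 ± 0.32, adjusted p = 8.41e-06) and is among the 15 largest rises. The 3 members not called were Dcn (1.17 ± 0.46), Mmp13 (1.43 ± 0.83) and Fn1 (0.15 ± 0.36), which are named here as the exceptions, chosen after their values were seen. Fn1, which hepatocytes also make for the plasma, was at 2494 and 3317 CPM in the controls and 2751 and 3692 CPM after BDL, and its groups overlapped. The list held, of counts other than RN45S, 0.48 and 0.654% in the controls and 1.35 and 1.47% after BDL, with both BDL libraries above both controls.

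Among 17 genes of stellate cells and fibroblasts, 10 were called higher (58.8%, against 15.1% of all genes) and 0 lower (median 1.32). Vim, an intermediate filament gene of mesenchymal cells, was at 8.76 and 11.6 CPM in the controls and 74.7 and 110.3 CPM after BDL (log2 fold change 3.17 ± 0.28, adjusted p = 5.18e-05). Pdgfrb, the receptor for PDGF-BB on these cells, was at 8.46 and 14.1 CPM in the controls and 47.2 and 55.8 CPM after BDL (log2 fold change 2.18 ± 0.27, adjusted p = 0.000364). Pdgfra rose by 1.97 ± 0.26, the globin gene Cygb of stellate cells by 2.76 ± 0.38, and Acta2, the smooth muscle actin of myofibroblasts, by 2.91 ± 0.41. Acta2 was at 1.07 and 2.52 CPM in the controls and 17.1 and 9.97 CPM after BDL. Lrat, which stores retinol in quiescent stellate cells, was at 8.12 and 8.57 CPM in the controls and 8.28 and 9.31 CPM after BDL and was not called (log2 fold change 0.06 ± 0.47, adjusted p = 0.939). The count of rises was 6 without control replicate 1 and 4 with scaling by total counts.

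Targets of the YAP and TAZ coactivators, which act through TEAD factors and respond to matrix stiffness, rose in part. Of 16 genes of that list, 9 were called higher (56.2%, against 15.1% of all genes) and 0 lower (median 0.76). Ankrd1 was at 0.128 and 0.233 CPM in the controls and 7.93 and 6.42 CPM after BDL (log2 fold change 5.21 ± 0.49, adjusted p = 8.02e-05). Ctgf, a matricellular protein also counted in the matrix list, was at 3.08 and 5.02 CPM in the controls and 23.4 and 42.3 CPM after BDL (log2 fold change 2.98 ± 0.34, adjusted p = 0.000208). Axl, a receptor tyrosine kinase for Gas6, was at 36.7 and 45.8 CPM in the controls and 97.4 and 151 CPM after BDL (log2 fold change 1.59 ± 0.26, adjusted p = 0.00136). Ajuba rose by 1.43 ± 0.30 and Tead1 by 1.32 ± 0.31, and Cyr61 (Ccn1), named after its values were seen because its promoter is printed, by 1.21 ± 0.35. Rises numbered 4 without control replicate 1, 5 without control replicate 2, 4 without BDL replicate 1, 5 without BDL replicate 2 and 2 with scaling by total counts.

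The promoters of 3 of these genes are shown because they rose together and hold the letters of the TEAD motif, GGAATG, set in capitals on either strand. Each run is the 250 bases before the RefSeq start (GRCm38.p6), written 5′ to 3′ on the gene's strand, which is the minus strand for all 3.
Ankrd1, chr19:36119845-36120094: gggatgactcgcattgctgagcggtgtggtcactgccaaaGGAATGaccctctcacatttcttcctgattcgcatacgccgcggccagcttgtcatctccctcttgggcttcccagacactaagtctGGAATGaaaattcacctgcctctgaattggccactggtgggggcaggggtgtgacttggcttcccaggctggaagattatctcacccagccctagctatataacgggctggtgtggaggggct
Axl, chr7:25788734-25788983: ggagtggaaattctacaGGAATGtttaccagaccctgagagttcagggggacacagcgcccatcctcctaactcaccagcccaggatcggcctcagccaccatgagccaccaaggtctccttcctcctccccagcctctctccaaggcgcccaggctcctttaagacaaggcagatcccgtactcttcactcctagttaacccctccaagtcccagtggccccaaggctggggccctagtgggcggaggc
Ccn1, chr3:145649986-145650235: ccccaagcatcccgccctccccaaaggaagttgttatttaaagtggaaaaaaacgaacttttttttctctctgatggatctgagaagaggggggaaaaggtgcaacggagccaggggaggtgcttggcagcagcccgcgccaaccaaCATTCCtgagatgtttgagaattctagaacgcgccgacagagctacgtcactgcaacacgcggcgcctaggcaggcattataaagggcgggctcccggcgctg

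The promoter table matched 12 of the 16 YAP target genes, with 14 windows, of which 9 (64.3%) hold GGAATG on either strand. Of all 32851 windows of this length that were searched, 12.6% hold it. Windows on chr18 were left out of the search. Of the 8 genes holding it, 6 were called higher, against 9 of all 16 genes of the list. The list is of targets of coactivators that act through TEAD factors, so its share of this motif is not an independent result. A link between the motif and the rises was not tested. The male-biased hepatocyte list holds it in 7 of 22 windows (31.8%), the bile acid synthesis list in 2 of 9 (22.2%) and the matrix list in 3 of 23 (13%). It was 1 of 7 motifs searched in 7 lists, so these shares are a description.

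Most of the tested bile duct cell genes rose, with 65% called higher against 15.1% of all genes. Of 20 tested, 13 were called higher and 0 lower (median 2.71), with 8 higher without BDL replicate 1, and the list held, of counts other than RN45S, 0.0621 and 0.0918% in the controls and 0.328 and 0.381% after BDL. Krt7, a keratin of bile ducts, was at 0.214 and 0.487 CPM in the controls and 9.21 and 3.54 CPM after BDL (log2 fold change 4.16 ± 0.54, adjusted p = 0.000403), and Epcam, an epithelial adhesion gene, was at 0.513 and 0.847 CPM in the controls and 5.8 and 3.1 CPM after BDL (log2 fold change 2.74 ± 0.41, adjusted p = 0.000894). Krt8 and Krt18, keratins of both duct cells and hepatocytes, were abundant before ligation, Krt8 at 60.1 and 79.2 CPM in the controls and 468 and 525 CPM after BDL and Krt18 at 88.1 and 93.4 CPM in the controls and 601 and 634 CPM after BDL. They rose by 2.83 ± 0.28 and 2.77 ± 0.29. Anxa2, a membrane-binding protein, rose by 3.76 ± 0.32 and Bicc1, an RNA-binding protein of ducts, by 2.73 ± 0.33. The 7 members not called included Onecut1 (-1.78 ± 1.09), a factor that hepatocytes share, and Epcam and Onecut1 were chosen after their values were seen. Genes of fetal liver and regeneration rose in part as well: 8 of 14 were called higher (57.1%, against 15.1% of all genes) and 0 lower (median 2.67). H19, an imprinted fetal RNA, was at 0.0427 and 0.148 CPM in the controls and 8.28 and 7.75 CPM after BDL (log2 fold change 6.14 ± 0.67, adjusted p = 0.000153). Ly6d rose by 5.86 ± 0.76, and Scd2, a desaturase, by 3.40 ± 0.35.

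Genes of monocyte-derived cells rose almost throughout. Of 18 tested, 16 were called higher (88.9%, against 15.1% of all genes) and 0 lower, with a median of 2.51. F13a1, a coagulation transglutaminase of monocytes, was at 0.128 and 0.381 CPM in the controls and 14.6 and 9.53 CPM after BDL (log2 fold change 5.43 ± 0.50, adjusted p = 7.8e-05). Cx3cr1, the fractalkine receptor, was at 0.727 and 0.677 CPM in the controls and 10.7 and 11.7 CPM after BDL (log2 fold change 3.99 ± 0.39, adjusted p = 9.26e-05), and Itgam, the CD11b integrin, was at 2.22 and 2.18 CPM in the controls and 28.8 and 21 CPM after BDL (log2 fold change 3.52 ± 0.35, adjusted p = 0.0001). Chil3, a chitinase-like protein of activated macrophages, rose by 5.09 ± 0.54. Lyz2 was among the 2 members not called. The list held, of counts other than RN45S, 0.00425 and 0.00452% in the controls and 0.0323 and 0.0372% after BDL, and the count of rises was 9 with scaling by total counts.

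The list of lipid-associated and scar macrophage genes held 20, of which 13 were called higher (65%, against 15.1% of all genes) and 0 lower (median 2.20). Beside Gpnmb, Trem2, a receptor for lipids and dying cells, was at 0.769 and 0.741 CPM in the controls and 7.23 and 10.6 CPM after BDL (log2 fold change 3.53 ± 0.40, adjusted p = 0.000187), and Lgals3, galectin-3, was at 1.54 and 1.97 CPM in the controls and 12 and 27.5 CPM after BDL (log2 fold change 3.43 ± 0.41, adjusted p = 0.000262). Cd63, a tetraspanin of lysosomes, was at 1.2 and 1.48 CPM in the controls and 12.2 and 17.7 CPM after BDL (log2 fold change 3.44 ± 0.34, adjusted p = 0.0001), and the integrin Itgax, CD11c, rose by 2.52 ± 0.37. Apoe, which hepatocytes express strongly, was at 7775 and 8464 CPM in the controls and 8199 and 13352 CPM after BDL, with overlapping groups, and was not called. It was chosen after its values were seen. The related list of lysosome and phagocytosis had 13 of 30 genes called higher and 1 lower (median 0.73), with the Fc receptor gene Fcgr3 at 3.38 and 3.6 CPM in the controls and 15.5 and 19.9 CPM after BDL (log2 fold change 2.33 ± 0.34, adjusted p = 0.000816) and Laptm5 up by 2.14 ± 0.37. This list had 43.3% called higher and 3.33% lower, against 15.1 and 12.4% of all genes. Its count of rises was 5 without control replicate 1, 7 without BDL replicate 2 and 2 with scaling by total counts.

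Some Kupffer cell genes rose. Of 26 tested, 8 were called higher and 4 lower (median 0.33), where the 15.4% called lower is near the 12.4% of all genes and the 30.8% called higher compares with 15.1%. The summed share was, of counts other than RN45S, 0.189 and 0.212% in the controls and 0.187 and 0.255% after BDL. Marco, a scavenger receptor, was at 35 and 28.5 CPM in the controls and 102 and 189 CPM after BDL (log2 fold change 2.19 ± 0.31, adjusted p = 0.000634). Csf1r, the receptor for macrophage colony-stimulating factor shared by all macrophages, was at 54.2 and 74.4 CPM in the controls and 136 and 211 CPM after BDL (log2 fold change 1.43 ± 0.30, adjusted p = 0.0055), and Cd68, a pan-macrophage marker, was at 5.43 and 5.14 CPM in the controls and 13.7 and 31.7 CPM after BDL (log2 fold change 2.06 ± 0.38, adjusted p = 0.00264). C1qc of complement rose by 1.87 ± 0.38. Timd4, a marker of resident Kupffer cells, was at 5.81 and 5.33 CPM in the controls and 2.71 and 3.1 CPM after BDL and was called lower (log2 fold change -0.97 ± 0.33, adjusted p = 0.0472), a call lost without each of the 4 libraries. Clec4f (-0.18 ± 0.30) and Vsig4 (-0.47 ± 0.32) were not called, and Clec4f had overlapping groups. These 3 resident markers were chosen after their values were seen. C6, a complement gene that hepatocytes express, fell by 1.84 ± 0.41. Called rises came to 3 without control replicate 1, 4 without BDL replicate 2 and 0 with scaling by total counts, and the median turned to -0.01 with that scaling and to -0.07 without BDL replicate 2. Falls there numbered 1 without control replicate 1, 1 without control replicate 2, 0 without BDL replicate 1 and 2 without BDL replicate 2.

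Neutrophil genes rose in part, at low counts. Of 18 in the list, 12 were tested, 7 were called higher (58.3%, against 15.1% of all genes) and 0 lower (median 2.19). Besides Lcn2, which hepatocytes also make in the acute phase, Csf3r, the receptor for G-CSF, was at 5.47 and 5.74 CPM in the controls and 28.5 and 17.3 CPM after BDL (log2 fold change 2.06 ± 0.28, adjusted p = 0.000563), and Mmp9, a gelatinase, was at 1.15 and 0.91 CPM in the controls and 5.03 and 4.87 CPM after BDL (log2 fold change 2.28 ± 0.40, adjusted p = 0.00224). The defining marker S100a8 was at 0.128 and 0.296 CPM in the controls and 0.696 and 1.77 CPM after BDL and was not called (log2 fold change 2.15 ± 0.94, adjusted p = 0.11), while S100a9 was at 1.24 and 1.08 CPM in the controls and 4.68 and 4.21 CPM after BDL (log2 fold change 1.96 ± 0.53, adjusted p = 0.0178). Il1r2, a decoy receptor for interleukin-1, was at 0.0427 and 0.0212 CPM in the controls and 1.01 and 0.886 CPM after BDL, with 2 counts over both controls, and was called higher (adjusted p = 0.00511). Ly6g, another defining marker, went the other way and was not called, with 14 and 6 counts in the controls and 1 and 0 after BDL. The S100 genes were chosen after their values were seen. The number of rises was 4 without BDL replicate 1 and 4 with scaling by total counts.

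In the list of dendritic cells and MHC class II, 10 of 15 genes were called higher (66.7%, against 15.1% of all genes) and 0 lower (median 2.08). Ciita, the master activator of MHC class II genes, was at 2.48 and 2.73 CPM in the controls and 12.5 and 20.4 CPM after BDL (log2 fold change 2.62 ± 0.38, adjusted p = 0.000728), and Irf8 was at 5.26 and 8.21 CPM in the controls and 16.9 and 25.7 CPM after BDL (log2 fold change 1.62 ± 0.29, adjusted p = 0.00238). H2-Ab1, a class II chain chosen after its values were seen, was at 4.92 and 8.81 CPM in the controls and 26.1 and 128 CPM after BDL (log2 fold change 3.45 ± 0.94, adjusted p = 0.0446). It was higher in BDL replicate 2 than in BDL replicate 1, and the call held in 1 of the 4 fits that leave out a library. The count of rises was 3 without control replicate 1, 6 without control replicate 2, 5 without BDL replicate 2 and 6 with scaling by total counts. T and NK cell genes were near the limit of detection, 5 of 16 were tested, and 0 were called higher and 0 lower by edgeR and by DESeq2, with 0 at an unadjusted p under 0.05. Of 9 B and plasma cell genes, 1 was called higher (11.1%, against 15.1% of all genes) and 0 lower (median -0.81). The risen gene was Sdc1 (0.92 ± 0.23), which hepatocytes also express. Without control replicate 1, without control replicate 2 and with scaling by total counts 0 were called higher, and without BDL replicate 2 and with the 4 libraries alone 2 were called lower.

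Signals that recruit and regulate leukocytes rose in part. Of 18 inflammatory mediators, 7 were called higher (38.9%, against 15.1% of all genes) and 0 lower (median 1.08). Nos2, the inducible nitric oxide synthase, was at 0 and 0.0847 CPM in the controls and 5.92 and 3.54 CPM after BDL (log2 fold change 6.38 ± 0.69, adjusted p = 0.00015). Ccl2, which recruits monocytes through Ccr2, was at 0.342 and 0.847 CPM in the controls and 3.48 and 3.1 CPM after BDL (log2 fold change 2.40 ± 0.48, adjusted p = 0.0041), and Tnf was at 0.342 and 0.148 CPM in the controls and 1.93 and 1.55 CPM after BDL (log2 fold change 2.97 ± 0.63, adjusted p = 0.00574). Icam1, an adhesion molecule, rose by 1.52 ± 0.28. Cxcl1, a neutrophil chemokine, was at 3.63 and 13.3 CPM in the controls and 7.81 and 10.4 CPM after BDL, with overlapping groups, and was not called (log2 fold change 0.06 ± 0.54, adjusted p = 0.951). Rises numbered 3 without BDL replicate 1 and 2 with scaling by total counts. In the chemokine and receptor list 11 of 21 were called higher (52.4%, against 15.1% of all genes) and 0 lower (median 2.0). Cxcl14 was at 1.28 and 0.847 CPM in the controls and 14.5 and 16.2 CPM after BDL (log2 fold change 3.88 ± 0.34, adjusted p = 5.51e-05), and Cxcl16 rose by 1.74 ± 0.28. With scaling by total counts 6 were called higher.

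Repair mediators rose in part: 10 of 18 were called higher and 1 lower (median 1.44), or 55.6 and 5.56% against 15.1 and 12.4% of all genes. Gas6, the ligand of Axl and Mertk, was at 24.6 and 25.4 CPM in the controls and 121 and 104 CPM after BDL (log2 fold change 2.17 ± 0.28, adjusted p = 0.000437). The TGF-beta genes Tgfb1, at 4.57 and 5.23 CPM in the controls and 15.3 and 19.3 CPM after BDL (log2 fold change 1.80 ± 0.27, adjusted p = 0.000889), and Tgfb2, at 0.983 and 0.847 CPM in the controls and 5.15 and 6.42 CPM after BDL (log2 fold change 2.64 ± 0.39, adjusted p = 0.00083), drive matrix production. Pdgfb, the ligand of Pdgfrb, rose by 2.37 ± 0.37. All 4 of these calls held without each library in turn. With scaling by total counts 4 members were called higher. Few interferon response genes were called, with 1 of 26 called higher and 2 lower (median -0.15), both shares below those of all genes. The fallen genes were Rsad2, at 10.6 and 13.9 CPM in the controls and 4.1 and 5.98 CPM after BDL (log2 fold change -1.36 ± 0.29, adjusted p = 0.00604), and Ifit1, at 6.58 and 7.6 CPM in the controls and 2.24 and 1.11 CPM after BDL (log2 fold change -1.90 ± 0.42, adjusted p = 0.00726), and Irf1 rose by 0.79 ± 0.24. Without BDL replicate 1 the counts were 4 higher and 1 lower, and without either control 0 were higher.

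Some genes of heme, iron and NRF2 rose. Of 33, 9 were called higher and 2 lower (median 0.38), which is 27.3 and 6.06% against 15.1 and 12.4% of all genes. Scaling by total counts left 2 higher and 0 lower. Beside Hmox1, Slc7a11, the cystine importer of glutathione synthesis, was at 0.0427 and 0.0212 CPM in the controls and 1.2 and 1.55 CPM after BDL, with 2 counts over both controls, and was called higher (adjusted p = 0.00083). G6pdx, which supplies NADPH, was at 3.55 and 3.75 CPM in the controls and 12.5 and 13.3 CPM after BDL (log2 fold change 1.81 ± 0.26, adjusted p = 0.000687). Slc11a1, the iron exporter of phagosomes, was at 7.48 and 7.11 CPM in the controls and 18.3 and 19.5 CPM after BDL (log2 fold change 1.37 ± 0.23, adjusted p = 0.0016). Ireb2, which represses or stabilizes iron-responsive mRNAs, was at 67.4 and 66.9 CPM in the controls and 29.7 and 25 CPM after BDL and fell (log2 fold change -1.29 ± 0.21, adjusted p = 0.00162). Nfe2l2, the gene of NRF2 itself, was at 74.2 and 70.5 CPM in the controls and 95 and 98.4 CPM after BDL and was not called (log2 fold change 0.42 ± 0.22, adjusted p = 0.174), and Hamp, the iron hormone hepcidin of hepatocytes, was at 122 and 85.1 CPM in the controls and 155 and 157 CPM after BDL and was not called (log2 fold change 0.59 ± 0.27, adjusted p = 0.115). In wild type both were called higher, Nfe2l2 by 1.37 ± 0.22 and Hamp by 2.11 ± 0.28, but the difference between genotypes was not called for either (Nfe2l2 -0.95 ± 0.31, adjusted p = 0.419, and Hamp -1.52 ± 0.38, adjusted p = 0.35).

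Notch pathway genes rose in part and fell in none. Of 34 tested, 12 were called higher and 0 lower (median 0.36), or 35.3% higher against 15.1% of all genes. Notch1, a receptor, was at 45.2 and 48.4 CPM in the controls and 88.6 and 64.7 CPM after BDL. The BDL libraries lay above the controls and the call was marginal (log2 fold change 0.72 ± 0.25, adjusted p = 0.0495), lost in 3 of the 4 fits that leave out 1 library. Notch3 was at 2.18 and 5.19 CPM in the controls and 12.9 and 10.4 CPM after BDL (log2 fold change 1.65 ± 0.37, adjusted p = 0.00726). Lfng, which glycosylates Notch receptors, was at 2.09 and 2.14 CPM in the controls and 6.92 and 7.31 CPM after BDL (log2 fold change 1.74 ± 0.33, adjusted p = 0.00327). The ligand gene Jag2 rose by 2.16 ± 0.63 from low counts, and the target Sox9, also a bile duct gene, by 1.32 ± 0.40. Numbl, a relative of the inhibitor Numb, was at 0.556 and 0.995 CPM in the controls and 4.22 and 3.32 CPM after BDL (log2 fold change 2.27 ± 0.43, adjusted p = 0.003). Numb was at 44.1 and 45.6 CPM in the controls and 33.5 and 31 CPM after BDL and was not called (log2 fold change -0.47 ± 0.21, adjusted p = 0.115). Lnx1, the E3 ligase for Numb, was at 1.62 and 1.02 CPM in the controls and 2.09 and 0.665 CPM after BDL, with overlapping groups, and was not called (log2 fold change 0.38 ± 0.51, adjusted p = 0.609). Its levels were 10.5 and 9.55 CPM in wild-type controls and 8.13 and 18.2 CPM in wild type after BDL, each above all 4 values given before. The count of rises in the list was 3 without control replicate 1, 5 without control replicate 2, 3 without BDL replicate 1 and 0 with scaling by total counts.

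Hepatocyte genes fell in part, among them genes of the zone around the central vein. Of 31 hepatocyte genes, 0 were called higher and 11 lower (median -0.77), and the 35.5% called lower compares with 12.4% of all genes. Serpina3k, a serine protease inhibitor, was at 7342 and 10704 CPM in the controls and 641 and 1460.2 CPM after BDL (log2 fold change -3.10 ± 0.51, adjusted p = 0.00141), and the cytochrome P450 gene Cyp2c29 was at 287 and 376 CPM in the controls and 64.3 and 108 CPM after BDL (log2 fold change -1.95 ± 0.31, adjusted p = 0.0013). G6pc, the last enzyme of glucose release, was at 295 and 478 CPM in the controls and 62.4 and 104 CPM after BDL (log2 fold change -2.22 ± 0.42, adjusted p = 0.00295). Without BDL replicate 1 the count of falls was 6. Of 16 pericentral genes, 12 were called lower and 0 higher (median -1.48), against 1 lower and 2 higher of 13 periportal genes (median -0.23). The 75% of pericentral genes called lower compares with 12.4% of all genes, and the periportal 15.4% higher and 7.69% lower with 15.1 and 12.4%. The difference between these 2 lists was not tested. In wild type 9 of the 16 pericentral and 7 of the 13 periportal genes were called lower (medians -1.01 and -0.99). For the difference between genotypes 6 of the 13 periportal genes had an unadjusted p under 0.05, all positive. Among the 16 pericentral genes 2 did, both negative, and none of either list was called. Of all genes 3.03% had a positive and 6.28% a negative difference at that p. Slc1a2, a glutamate transporter, was at 189.9 and 136 CPM in the controls and 31.7 and 30.4 CPM after BDL (log2 fold change -2.39 ± 0.31, adjusted p = 0.000389), the uptake transporter gene Slco1b2 was at 888 and 821 CPM in the controls and 135 and 203 CPM after BDL (log2 fold change -2.34 ± 0.31, adjusted p = 0.000509), and Cyp2e1, which oxidizes ethanol, was at 2071 and 1656 CPM in the controls and 275 and 538 CPM after BDL (log2 fold change -2.20 ± 0.39, adjusted p = 0.00233). Tbx3, a target of Wnt signals in this zone, fell by 1.64 ± 0.32. Among periportal genes Aldh1b1 was at 16.3 and 21 CPM in the controls and 39.7 and 52.7 CPM after BDL and rose (log2 fold change 1.29 ± 0.23, adjusted p = 0.00228). Without 1 of the 4 libraries 1 or 2 periportal genes were called higher and 0 or 1 lower. The pericentral falls numbered 6 with scaling by total counts.

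The largest falls were in genes that male mouse liver expresses above female liver, with 88.5% called lower against 12.4% of all genes. The sex bias of such genes follows the pulses of growth hormone through STAT5b, which repress female-biased genes in males. Of 26 male-biased genes tested, 23 were called lower and 0 higher, with a median of -6.46, and 16 falls held without each library in turn. Slco1a1 (chromosome 6, 141907282 to 141946962), an uptake carrier for organic anions and bile acids, was at 323 and 284 CPM in the controls and 0.116 and 0 CPM after BDL. With 3 counts over both BDL libraries, the pooled level was 3005 times lower than in the controls (95% counting interval 1028 to 14570, adjusted p = 3.91e-07). Sult2a8, a bile acid sulfotransferase, was at 394 and 279 CPM in the controls and 0.232 and 0.443 CPM after BDL (log2 fold change -10.26 ± 0.44, adjusted p = 3.91e-07). Hsd3b5, a steroid dehydrogenase, was at 82.4 and 81.8 CPM in the controls and 0.0387 and 0 CPM after BDL, with 1 count over the BDL libraries and a pooled level 2489 times lower (counting interval 446.7 to 98300, adjusted p = 1.83e-05). Elovl3, a fatty acid elongase, was at 90.3 and 106 CPM in the controls and 0.193 and 0.886 CPM after BDL (log2 fold change -8.24 ± 0.58, adjusted p = 2.76e-05). Mup21, which encodes a urinary pheromone carrier, was at 100.4 and 192 CPM in the controls and 0.426 and 0.665 CPM after BDL (log2 fold change -8.26 ± 0.47, adjusted p = 4.15e-06), and Mup3 was at 2698 and 2672 CPM in the controls and 5.03 and 43.6 CPM after BDL (log2 fold change -6.86 ± 0.94, adjusted p = 0.00124). Counting intervals and floors cover counting error only.

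The Mup genes are near-identical copies that could share reads, so single values are uncertain. Mup14 was at 714 and 641 CPM in the controls and 0 and 0 CPM after BDL, and it was at least 6732-fold lower, taking 3 counts in the BDL group as the floor (adjusted p = 0.0196). Mup7 was at 2691 and 2917 CPM in the controls and 0.0387 and 0 CPM after BDL, a single count over the BDL libraries. Its pooled level was 86300 times lower (counting interval 15490 to 3408000, adjusted p = 0.0149), and the call for each of these 2 genes held in 1 of the 4 fits that leave out a library. Mup1, at 48.2 and 46.3 CPM in the controls and 0 and 0 CPM after BDL, and Mup12, at 26.5 and 24.8 CPM in the controls and 0 and 0 CPM after BDL, had 0 counts after BDL. Mup1 was at least 475.1-fold lower, and for Mup12 the bound was 256.6-fold. These 2 were chosen after their values were seen. Serpina4-ps1, a protease inhibitor pseudogene, was at 219 and 179 CPM in the controls and 0.348 and 0 CPM after BDL and fell by 9.43 ± 1.39. Cyp4a12b, a fatty acid hydroxylase with a close relative, fell by 5.15 ± 1.29, a call lost without any 1 of the 4 libraries, and the sulfotransferase gene Sult5a1 fell by 4.70 ± 0.56. Sdr9c7, a short-chain dehydrogenase, was at 46.6 and 31.2 CPM in the controls and 1.28 and 1.33 CPM after BDL (log2 fold change -4.91 ± 0.31, adjusted p = 7.21e-06), and Keg1, an acyltransferase-like gene, was at 57.4 and 67.2 CPM in the controls and 2.55 and 3.77 CPM after BDL (log2 fold change -4.40 ± 0.36, adjusted p = 3.97e-05). Cabyr, a calcium-binding protein gene known from sperm, was at 122 and 34.1 CPM in the controls and 0.928 and 0.443 CPM after BDL and fell (log2 fold change -6.56 ± 1.24, adjusted p = 0.0148), a call held in 2 of the 4 fits that leave out a library.

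In wild type the median log2(CPM + 0.1) of the male-biased genes was 7.59 and 7.49 in the controls, 0.84 in the BDL library with female RNA and 3.37 in the other. Female-biased genes rose in part. Of 24 listed, 14 were tested, 9 were called higher (64.3%, against 15.1% of all genes) and 0 lower (median 2.17). Cux2, a repressor of male-biased genes in female liver, was at 0.855 and 1.08 CPM in the controls and 27.9 and 9.75 CPM after BDL (log2 fold change 4.31 ± 0.76, adjusted p = 0.00449). Sult1e1, the estrogen sulfotransferase, was at 0.0427 and 0.212 CPM in the controls and 11.4 and 4.43 CPM after BDL (log2 fold change 5.77 ± 0.83, adjusted p = 0.0011), Fmo2 was at 3.38 and 4.47 CPM in the controls and 25.1 and 21.9 CPM after BDL (log2 fold change 2.58 ± 0.36, adjusted p = 0.000606), and Nipal1 was at 0.47 and 0.318 CPM in the controls and 4.8 and 10.6 CPM after BDL (log2 fold change 4.25 ± 0.55, adjusted p = 0.000426). Called rises came to 4 without control replicate 1. In the growth hormone and IGF axis 4 of 19 genes were called lower and 2 higher (median -0.41), or 21.1 and 10.5% against 12.4 and 15.1% of all genes. Ghr, the growth hormone receptor, was at 288 and 249.8 CPM in the controls and 73.6 and 98.1 CPM after BDL (log2 fold change -1.65 ± 0.28, adjusted p = 0.00159), and Bcl6, a repressor of female-biased genes in male liver, was at 38.7 and 43.6 CPM in the controls and 11.3 and 16 CPM after BDL (log2 fold change -1.63 ± 0.35, adjusted p = 0.00608). Igf1, the hormone that growth hormone induces, chosen after its values were seen, fell by 0.88 ± 0.29. The rises numbered 0 without control replicate 1, 0 without BDL replicate 1 and 1 without BDL replicate 2. The falls numbered 2 without control replicate 1, 2 without control replicate 2 and 1 without BDL replicate 1.

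**Figure D3:**
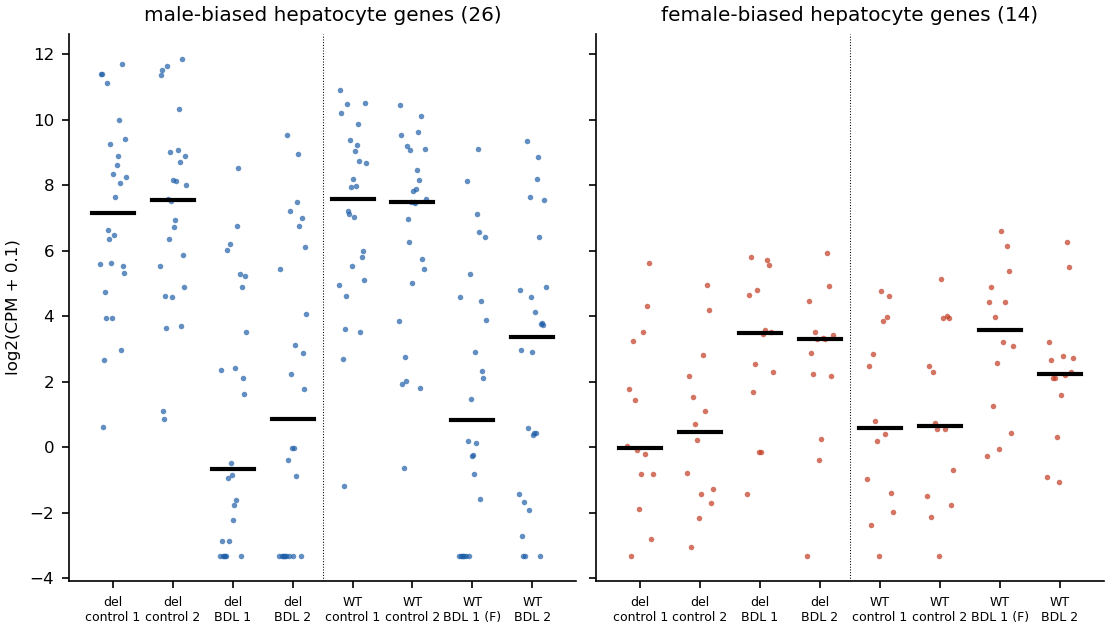
Log2(CPM + 0.1) of 26 male-biased (left) and 14 female-biased (right) hepatocyte genes in each of the 8 libraries, with del for those labelled HO-1 deleted, WT for wild type and F for the library from a female. Each point is a gene and each black bar a library's median, which for the male-biased genes was 7.15 and 7.55 in the del controls and -0.65 and 0.88 after BDL.

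The promoter of Slco1a1 is shown because the gene was among the largest male-biased falls and encodes a bile acid carrier. The run is the 250 bases before its RefSeq start (GRCm38.p6, minus strand), with the nuclear receptor half-site AGGTCA in capitals on either strand.
Slco1a1, chr6:141946963-141947212: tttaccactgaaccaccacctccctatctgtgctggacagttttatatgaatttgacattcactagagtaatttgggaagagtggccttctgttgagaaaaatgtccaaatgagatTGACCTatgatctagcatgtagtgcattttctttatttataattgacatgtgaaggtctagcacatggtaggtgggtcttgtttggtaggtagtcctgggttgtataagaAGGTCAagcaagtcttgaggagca
The half-site is in 5 of 22 windows (22.7%) of male-biased genes and in 14.0% of all windows searched. The STAT motif TTCNNNGAA is in 1 of the 22 (4.55%) and in 7.02% of all windows searched.

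Part of the bile acid synthesis genes and of the uptake carriers fell. Of 15 synthesis genes, 7 were called lower (46.7%, against 12.4% of all genes) and 0 higher (median -0.80). The list held, of counts other than RN45S, 0.459 and 0.488% in the controls and 0.226 and 0.224% after BDL. Akr1c6 was at 210.3 and 228 CPM in the controls and 39.2 and 42.1 CPM after BDL (log2 fold change -2.43 ± 0.26, adjusted p = 0.00015), and Hsd3b7, an early enzyme of the pathway, was at 198 and 237 CPM in the controls and 71.4 and 57.4 CPM after BDL (log2 fold change -1.75 ± 0.26, adjusted p = 0.000769). Cyp7b1, of the alternative pathway and also male-biased, was at 200.03 and 123 CPM in the controls and 5.22 and 8.64 CPM after BDL (log2 fold change -4.62 ± 0.67, adjusted p = 0.00174). Cyp7a1, the rate-limiting enzyme of the classical pathway, was chosen after its values were seen. It was at 83.5 and 30.4 CPM in the controls and 110.2 and 118 CPM after BDL, above the controls in both BDL libraries, and was not called (log2 fold change 1.0 ± 0.50, adjusted p = 0.166). Without control replicate 1 it was called higher, with a log2 fold change of 1.91. The falls numbered 4 without BDL replicate 1 and 4 with scaling by total counts.

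Of 23 genes of bile acid transport and its control, 3 were called higher and 8 lower (median -0.20), or 13 and 34.8% against 15.1 and 12.4% of all genes. The rises were in exporters. Slc51b, a subunit of the basolateral exporter OST, was at 0 and 0.0423 CPM in the controls and 3.09 and 2.22 CPM after BDL, with 2 counts over both controls, and was called higher (adjusted p = 0.000341). Abcb1a, which encodes a P-glycoprotein, was at 2.22 and 2.37 CPM in the controls and 18.4 and 17.7 CPM after BDL (log2 fold change 2.97 ± 0.26, adjusted p = 5.49e-05). The third was Abcc4, which exports bile acids to the blood (1.65 ± 0.29). Slc10a1, the sodium-dependent uptake carrier NTCP, was at 167 and 147 CPM in the controls and 33.7 and 58.3 CPM after BDL (log2 fold change -1.79 ± 0.30, adjusted p = 0.00174), and Nr1h4, the bile acid receptor FXR, was at 224 and 173 CPM in the controls and 66.7 and 63.4 CPM after BDL (log2 fold change -1.61 ± 0.27, adjusted p = 0.00158). Abcg2 fell by 1.65 ± 0.24. The falls in the list numbered 5 without control replicate 1 and 4 with scaling by total counts. Abcb11, the canalicular bile salt pump, was at 413 and 530.0 CPM in the controls and 529 and 375 CPM after BDL, with overlapping groups, and was not called (log2 fold change -0.06 ± 0.31, adjusted p = 0.903). Slc10a1, Nr1h4, Abcc4 and Abcb11 were chosen after their values were seen.

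Genes of fatty acid oxidation fell in part. Of 23 genes of fatty acid oxidation and PPARA targets, 11 were called lower (47.8%, against 12.4% of all genes) and 0 higher (median -0.98). Ppara itself was at 253 and 172 CPM in the controls and 57.6 and 74.2 CPM after BDL (log2 fold change -1.69 ± 0.29, adjusted p = 0.00195). The count of falls was 4 without control replicate 1, 5 without control replicate 2, 4 without BDL replicate 1 and 3 with scaling by total counts. In lipid synthesis 2 of 18 were called higher and 4 lower (median -0.26), or 11.1 and 22.2% against 15.1 and 12.4% of all genes. Mlxipl, the glucose-sensing factor ChREBP, was at 1005 and 1186 CPM in the controls and 242 and 173 CPM after BDL (log2 fold change -2.40 ± 0.45, adjusted p = 0.00305). The falls there numbered 2 without control replicate 2, 2 without BDL replicate 1 and 2 with scaling by total counts, and the rises 0 or 1 without each of the 4 libraries. In cholesterol synthesis and uptake 2 of 21 were called higher and 3 lower (median 0.33), or 9.52 and 14.3% against the same shares of all genes. Lss, which closes the sterol ring, was at 24.7 and 27.5 CPM in the controls and 48.6 and 53.2 CPM after BDL (log2 fold change 0.96 ± 0.22, adjusted p = 0.00844) and Idi1, an early isoprenoid enzyme, was at 2.95 and 4.3 CPM in the controls and 1.08 and 2.22 CPM after BDL (log2 fold change -1.35 ± 0.47, adjusted p = 0.0493). Without control replicate 1, and with scaling by total counts, 0 were called higher and 0 lower, and with that scaling the median was -0.011. Without control replicate 2 the counts were 3 and 0, and without BDL replicate 1 they were 4 and 0. In wild type 11 of the 21 were called higher and 0 lower (median 0.91), and 8 of the 21 had an unadjusted p under 0.05 for the difference between genotypes, all negative, with none called, against 6.28% of all genes with a negative difference at that p.

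Genes of the urea cycle and amino acid breakdown had 7 of 25 called lower and 0 higher (median -0.38). The 28% called lower compares with 12.4% of all genes. The count of falls was 1 without control replicate 1, 3 without control replicate 2, 1 without BDL replicate 1, 4 without BDL replicate 2 and 1 with scaling by total counts. Glul, which binds ammonia into glutamine around the central vein, was at 442 and 515 CPM in the controls and 128 and 172 CPM after BDL (log2 fold change -1.67 ± 0.40, adjusted p = 0.0101). Of 32 complement and coagulation genes, 10 were called lower and 1 higher (median -0.41). These are 31.2 and 3.12%, against 12.4 and 15.1% of all genes. F11, coagulation factor XI, was at 199 and 209.8 CPM in the controls and 45.2 and 41.2 CPM after BDL (log2 fold change -2.24 ± 0.24, adjusted p = 0.000151), and C8b, of the membrane attack complex, was at 267 and 424 CPM in the controls and 39.6 and 109 CPM after BDL (log2 fold change -2.23 ± 0.45, adjusted p = 0.00498). C8b, C8a and C6 are also members of the male-biased list, so the falls of the 2 lists overlap in part. The count of falls was 5 without control replicate 1, 4 without control replicate 2, 4 without BDL replicate 1 and 4 with scaling by total counts. Acute-phase genes had 7 of 28 called higher and 1 lower (median 0.80), or 25 and 3.57% against 15.1 and 12.4% of all genes. Orm3, an orosomucoid, was at 4.7 and 3.77 CPM in the controls and 19.3 and 24.1 CPM after BDL (log2 fold change 2.35 ± 0.28, adjusted p = 0.000246), and Saa2, a serum amyloid A, was at 141 and 74 CPM in the controls and 419.8 and 394 CPM after BDL (log2 fold change 1.92 ± 0.36, adjusted p = 0.00287). Saa4, the constitutive serum amyloid A, was at 240.5 and 225 CPM in the controls and 50.1 and 64.2 CPM after BDL and fell (log2 fold change -2.03 ± 0.27, adjusted p = 0.000477). The Orm and Saa genes are close relatives that could share reads. The rises numbered 4 with scaling by total counts.

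Cell cycle genes rose in part: 14 of 35 were called higher and 0 lower (median 0.97). The 40% called higher compares with 15.1% of all genes. Ccnd1, cyclin D1, was at 10.8 and 11.6 CPM in the controls and 42.2 and 46.7 CPM after BDL (log2 fold change 1.99 ± 0.25, adjusted p = 0.000364), and Mcm2, of the replication helicase, was at 2.69 and 2.71 CPM in the controls and 10.6 and 7.98 CPM after BDL (log2 fold change 1.80 ± 0.35, adjusted p = 0.00366). Foxm1, a driver of mitotic genes, rose by 2.10 ± 0.42. The number of rises was 3 without control replicate 1, 7 without BDL replicate 1, 9 without BDL replicate 2 and 0 with scaling by total counts. In wild type 25 of the 35 were called higher, against 11.8% of all genes (median 1.82). For the difference 7 of the 35 had an unadjusted p under 0.05, all negative, with none called, against 6.28% of all genes with a negative difference at that p.

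Ribosomal protein genes were higher after BDL in these libraries with TMM scaling. Of 41 tested, 24 were called higher (58.5%, against 15.1% of all genes) and 0 lower (median 1.07). The list held, of counts other than RN45S, 0.205 and 0.22% in the controls and 0.422 and 0.444% after BDL. Rps20 was at 15.3 and 13.9 CPM in the controls and 44.2 and 70.2 CPM after BDL (log2 fold change 1.96 ± 0.25, adjusted p = 0.000409), Rplp0 was at 35.4 and 32.9 CPM in the controls and 94.4 and 134 CPM after BDL (log2 fold change 1.74 ± 0.31, adjusted p = 0.00234) and Rps19 was at 12.8 and 12.5 CPM in the controls and 29.2 and 33.2 CPM after BDL (log2 fold change 1.30 ± 0.24, adjusted p = 0.00275). Their BDL libraries lay above their controls without overlap. The count of rises was 6 without control replicate 1, 10 without control replicate 2, 11 without BDL replicate 2 and 0 with scaling by total counts. In wild type 1 of the 41 was called higher (median 0.17). For the difference between genotypes 16 of the 41 had an unadjusted p under 0.05, all positive, against 3.03% of all genes with a positive difference at that p, and none was called. RN45S, the ribosomal RNA precursor, took shares that overlapped between controls and BDL. With its share as a covariate 17 of the 41 were called higher (median 0.83), and without rRNA genes 24 (median 1.08). The cause of the rise was not tested. In oxidative phosphorylation 4 of 34 genes were called lower and 1 higher (median -0.37), and the 11.8% called lower is near the 12.4% of all genes. Ndufs1, of complex I, was at 51.3 and 64.6 CPM in the controls and 32.3 and 33.9 CPM after BDL (log2 fold change -0.81 ± 0.22, adjusted p = 0.0193). These falls numbered 1 without control replicate 1, 0 without control replicate 2, 0 without BDL replicate 1 and 0 with scaling by total counts. In wild type 19 of the 34 were called lower, against 6.59% of all genes (median -0.81).

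Among 25 genes of sinusoidal endothelial cells, 4 were called higher and 0 lower (median 0.13), and the 16% called higher is near the 15.1% of all genes. With scaling by total counts 0 were called and the median turned to -0.25, and without BDL replicate 2 it was -0.036. Vwf, a clotting factor carrier of larger vessels, was at 9.02 and 12.8 CPM in the controls and 41.4 and 36.1 CPM after BDL (log2 fold change 1.83 ± 0.32, adjusted p = 0.002), and Stab1, a scavenger receptor, was at 101 and 115 CPM in the controls and 327 and 206 CPM after BDL (log2 fold change 1.31 ± 0.27, adjusted p = 0.0054). The rises numbered 1 without control replicate 1, 2 without control replicate 2 and 2 without BDL replicate 2. Of 10 erythroid genes 3 were tested, and Alas2, the heme synthesis enzyme of red cell precursors, was at 23.8 and 27.6 CPM in the controls and 3.17 and 5.54 CPM after BDL and fell (log2 fold change -2.69 ± 0.29, adjusted p = 0.000155). Hbb-bs was at 0 counts in all 4 libraries.

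**Figure D4:**
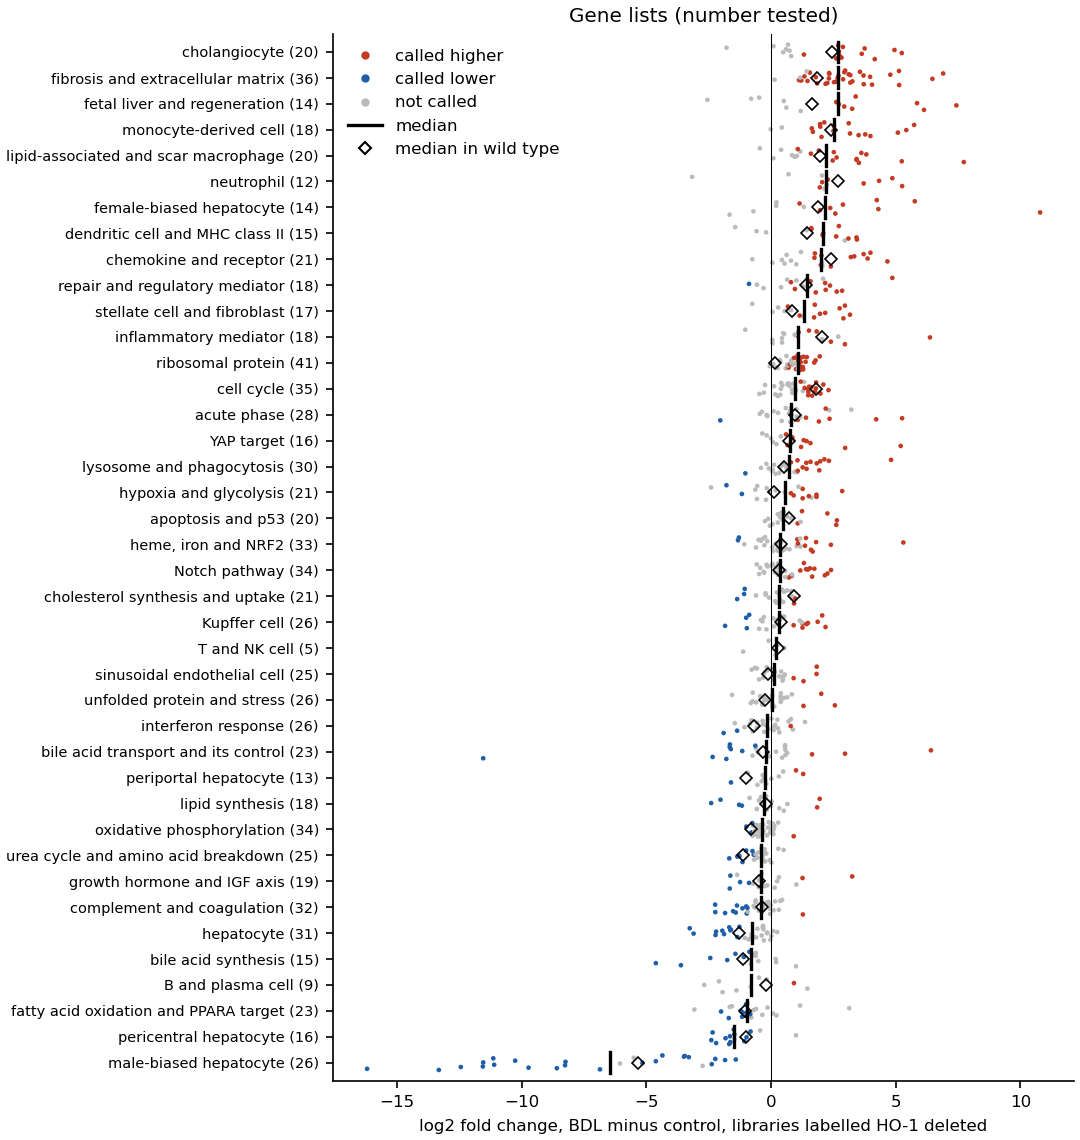
Log2 fold change after BDL in the libraries labelled HO-1 deleted (horizontal axis) for each tested gene of the 40 lists with 5 or more tested genes, ordered by median. Red and blue points are genes called higher and lower, grey points those not called, black bars the lists' medians and open diamonds the medians in wild type, and the male-biased list lies lowest with a median of -6.46.

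Set beside wild type, which shares no library with the groups above, the response had the same direction for most genes. In wild type 1675 genes were called higher (11.8%) and 932 lower (6.59%), 2607 in all, against 873 without wild-type control replicate 1, 1286 without wild-type control replicate 2 and 550 with scaling by total counts. The 1251 genes called higher in both genotypes were 58.5% of those called higher in the libraries labelled HO-1 deleted and 74.7% of those in wild type, and the 609 called lower in both were 34.7 and 65.3%. Of the 3895 genes called in the libraries labelled HO-1 deleted, 94.5% had the same sign in wild type, against 77.3% of all genes tested. The correlation of the log2 fold changes across genes was 0.778, where genes are not independent replicates. Genes called in opposite directions were Ddit4, which rose here and fell in wild type, and Gm15506, H2-K2, Idi1, Platr22, Tgfbr1 and Vtcn1, which fell here and rose there, named after their values were seen. None of them was called by the test of the difference given below. The wild-type side of this comparison includes the BDL library with female RNA.

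**Figure D5:**
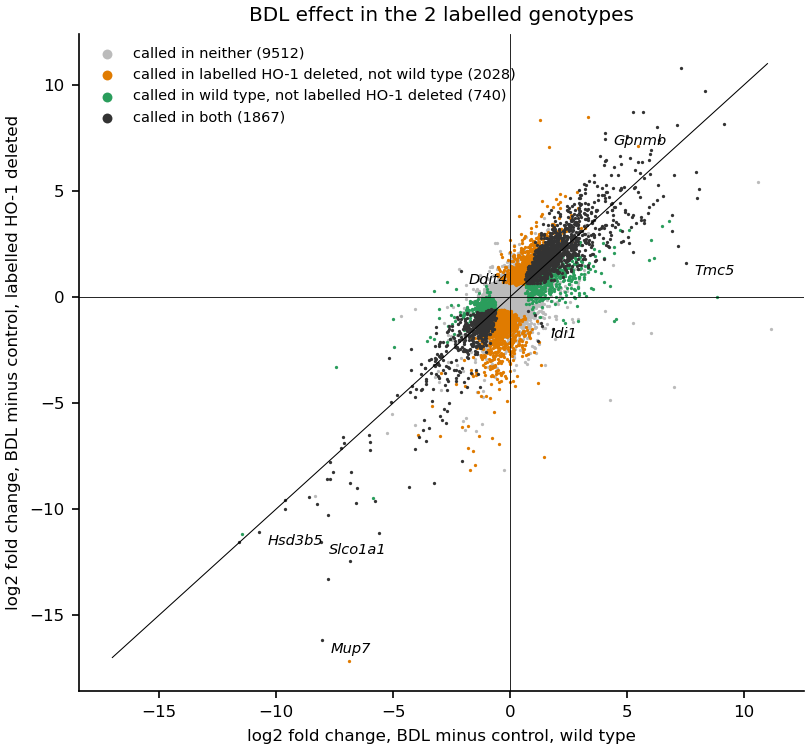
Log2 fold change after BDL in the libraries labelled HO-1 deleted (vertical axis) against that in wild type (horizontal axis) for 14147 genes, with the line of equal change. Colours show in which genotype a gene was called, 1867 in both counting those called in opposite directions, and Tmc5 lies below the line with 1.62 against 7.53.

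By the test of the difference itself, 1 of 14147 genes was called (0.00707%), 1316 had an unadjusted p under 0.05 (9.3%), and DESeq2 called 77. Without wild-type BDL replicate 1, the library with female RNA, 189 were called, and without wild-type BDL replicate 2, 12. Tmc5 (chromosome 7, 118597297 to 118675086), of the transmembrane channel-like family, was at 0.385 and 0.402 CPM in the controls and 0.928 and 1.99 CPM after BDL and at 0.0628 and 0.0965 CPM in wild-type controls and 13.4 and 17.6 CPM in wild type after BDL. It rose in both, and the rise was smaller in the libraries labelled HO-1 deleted (difference of log2 fold changes -5.90 ± 0.70, adjusted p = 0.0387). The call was lost without HO1del control replicate 1 (adjusted p = 0.227), control replicate 2 (0.258), BDL replicate 1 (0.295) or either wild-type control, and held without each wild-type BDL library, where the adjusted p was 0.00397 without the female one. Ddit4, a stress-induced inhibitor of mTORC1, was at 4.15 and 6.22 CPM in the controls and 10.1 and 14.8 CPM after BDL and at 23.7 and 44.7 CPM in wild-type controls and 7.83 and 8.03 CPM in wild type after BDL. Its groups did not overlap within either genotype and the changes ran in opposite directions (1.22 ± 0.34 here and -2.11 ± 0.33 in wild type), but the difference was not called (3.32 ± 0.48, adjusted p = 0.12). It was called by DESeq2 (adjusted p = 1e-06), without a filter on low counts (1.52e-07), on log2(FPKM + 1) (0.0177), on log2(FPKM + 0.1) (0.0438), without wild-type BDL replicate 1 (0.0235) and without wild-type control replicate 1 (0.044), and not under the other alternatives run, up to an adjusted p of 1.0 on FPKM without a filter. Gpnmb (7.74 ± 0.60 here and 4.06 ± 0.52 in wild type) was not called for the difference (3.67 ± 0.81, adjusted p = 0.342), nor was Slco1a1 (adjusted p = 0.342).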

How the data were processed

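RNA of 8 libraries (4 groups of 2) was sequenced after ribosomal RNA depletion with a strand-specific kit, per the labels' protocols. The authors deposited raw counts per gene symbol and FPKM values, made with STAR 2.7.3a and Cufflinks on build mm10, per the submitters' processing notes. The strand used in counting and the annotation release are not given in the sources used here, so antisense and overlapping genes are uncertain, as are near-identical copies. Of 24982 symbols, 99.7% matched the reference tables, positions are from the GENCODE vM21 annotation, and promoters are from RefSeq (GRCm38.p6).

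Counts were fitted with edgeR 4.0.16 in R 4.3.3 (TMM scaling, its filter on low counts, robust quasi-likelihood, 4 group means over 8 libraries, Benjamini-Hochberg adjustment over 14147 genes, 4 residual degrees of freedom). Without replication beyond 2 libraries a group, exact permutation tests of single genes were not used. The alternatives were DESeq2 1.42.0, limma 3.58.1 on counts (voom) and on log2(FPKM + 1) or log2(FPKM + 0.1), other scalings and filters, thinned counts, the RN45S share as a covariate, and each library left out. The code was tested on simulated counts with the sizes of these libraries. Of 100 genes changed 2-fold 18 were recovered, and of 100 changed 4-fold 85, with 2 unchanged genes called. The simulation changed 200 of 14147 genes and took the spread from the fitted trend, whereas 3895 genes were called in the data. Its recovery shares need not hold for the data. A gene not called is thus not shown to be unchanged. The members and the 41 gene lists were chosen with earlier results of these data known.

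Genes were named by rule: the 15 largest called rises and falls with a mean log2 CPM of at least 1 and no overlap between groups, leaving out predicted genes, up to 5 genes of each list by adjusted p and up to 2 by the p of the difference, and 6 genes of the design. Results for some genes that the rule names are not reported here, though the list counts hold them. Library totals were 9.81 to 40.9 M counts.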

Additional observations from a re-analysis of the deposited data

Results flagged for a closer look

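Tmc5, of the transmembrane channel-like family, was singled out because its response to BDL differed between the libraries labelled HO-1 deleted and wild type by a test of the difference itself. The difference of log2 fold changes was -5.90 (adjusted p = 0.0387, edgeR quasi-likelihood test over 14147 genes), with a rise in both genotypes. Over the alternatives run its adjusted p ranged from 1.69e-08 (no filter on low counts) to 0.519 (limma-voom), and with DESeq2 it was 1.56e-06. Under the stricter filter on low counts it was not tested.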

How the results depend on the processing

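In the libraries labelled HO-1 deleted, leaving out 1 of the 8 libraries moved the called genes between 1572 (without HO1del control replicate 1) and 4362, those higher between 924 and 2407 and those lower between 648 and 2020. With scaling by total counts 918 were called, 441 higher and 477 lower. On log2(FPKM + 1) the counts were 577, 238 and 339 (41.2% higher), on log2(FPKM + 0.1) 628, 236 and 392 (37.6% higher), and on log2(FPKM + 1) without a filter 97, 48 and 49. In wild type leaving out a library gave 873 (without WT control replicate 1) to 2807, scaling by total counts 550, thinning 1724, and the 3 FPKM fits 485, 380 and 82. For the difference between genotypes leaving out a library gave 0 to 189, the highest without WT BDL replicate 1 and 12 without WT BDL replicate 2. It was 77 with DESeq2, 138 without a filter, 7 with scaling by total counts, 81 on log2(FPKM + 1), 51 on log2(FPKM + 0.1) and 2 on FPKM without a filter, and 0 with a stricter filter, without robust estimation, with the RN45S share as a covariate, with thinned counts and with limma-voom. The cause was not tested. The other alternatives kept these counts within 1.5 times.

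Some log2 fold changes of genes not called turned in sign. Leaving out 1 library gave -0.304 (without BDL replicate 1) to 0.154 (without BDL replicate 2) for Abcb11, and 0.13 without control replicate 2. The range was -0.963 to 0.196 for Alb and -0.426 to 0.058 for Clec4f, the positive values without BDL replicate 1. It was -0.567 (without control replicate 1) to 1.297 for Cxcl1, which was at -0.14 without BDL replicate 2. It was -0.091 (without BDL replicate 2) to 0.374 for Fn1, -0.92 (without BDL replicate 1) to 0.717 for Lnx1, and -0.026 to 0.184 for Lrat and -0.23 to 1.878 for Lyz2, the negative values without BDL replicate 2. Without control replicate 1 Fn1 was at -0.033. With scaling by total counts Apoe was at -0.048, Cxcl1 at -0.46, Fn1 at -0.286 and Lrat at -0.256. With the RN45S share as a covariate Abcb11 was at 0.066 and Lrat at -0.1, and with thinned counts Lrat was at -0.118. On log2(FPKM + 1), with and without a filter, Alb was at 5.802, Fn1 at -0.069 and Lrat at -0.085, and on log2(FPKM + 0.1) they were at 7.462, -0.069 and -0.19. Ly6g was at 0.0 on FPKM without a filter. Alb is listed at 0 FPKM in control replicate 2, 1 of 8 such genes among the 4446 with 1000 or more counts there, so an FPKM of 0 can be a failed estimate.

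Of 179 named genes, only 27 kept direction and call under every alternative run. No paired analysis was possible because the labels give no replicate numbers, and numbers were assigned in accession order. The shallowest library, BDL replicate 2, had 3.25 M counts other than RN45S, which limits what can be said of genes with few counts.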

Other observations

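Genes of hypoxia and glycolysis rose in part after BDL in the libraries labelled HO-1 deleted. Of 21 tested, 8 were called higher and 2 lower, or 38.1 and 9.52% against 15.1 and 12.4% of all genes. The median log2 fold change was 0.56, and 0.121 without BDL replicate 2. Pkm, the pyruvate kinase of cells other than hepatocytes, was at 10.1 and 19.2 CPM in the controls and 100.3 and 113 CPM after BDL (log2 fold change 2.86 ± 0.30, adjusted p = 0.000143), while Pklr, the liver form, was at 58.6 and 133 CPM in the controls and 24.8 and 31.2 CPM after BDL (log2 fold change -1.78 ± 0.34, adjusted p = 0.00352). Both moved without overlap between the groups, in opposite directions. The hexokinase genes Hk1, at 4.57 and 6.18 CPM in the controls and 16.2 and 22.8 CPM after BDL (log2 fold change 1.83 ± 0.31, adjusted p = 0.00171), and Hk2, at 3.5 and 4.45 CPM in the controls and 10.7 and 12.4 CPM after BDL (log2 fold change 1.52 ± 0.27, adjusted p = 0.00236), rose, as did the platelet-type phosphofructokinase gene Pfkp (1.83 ± 0.26). The glucose carrier gene Slc2a1 was at 7.14 and 5.5 CPM in the controls and 15.9 and 14.4 CPM after BDL (log2 fold change 1.27 ± 0.25, adjusted p = 0.00402), its difference from wild type was 1.14 ± 0.35 on the log2 scale, and that difference was not called (adjusted p = 0.385). With scaling by total counts 1 gene of the list was called higher and 1 lower, and without control replicate 1 the counts were 5 and 1.

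Of 20 genes of apoptosis and p53, 5 were called higher and 0 lower (median 0.48), against 15.1 and 12.4% of all genes. Cdkn1a, the cell cycle inhibitor p21, was at 0.769 and 1.82 CPM in the controls and 8.09 and 8.64 CPM after BDL (log2 fold change 2.62 ± 0.49, adjusted p = 0.00315), and Bax, a mitochondrial death effector, was at 9.19 and 7.26 CPM in the controls and 15.4 and 19.5 CPM after BDL (log2 fold change 1.07 ± 0.25, adjusted p = 0.00975). The count of rises was 3 without control replicate 1, 2 without control replicate 2, 3 without BDL replicate 1 and 2 with scaling by total counts. Of 26 genes of unfolded protein and stress, 3 were called higher and 0 lower (median 0.06), and the 11.5% called higher is below the 15.1% of all genes. The 3 were Atf3, at 0.769 and 2.69 CPM in the controls and 9.28 and 12.6 CPM after BDL (log2 fold change 2.56 ± 0.50, adjusted p = 0.00455), Hspa1a (2.02 ± 0.57) and Ddit3 (1.31 ± 0.39). Their count was 1 without control replicate 1, 1 without control replicate 2, 1 without BDL replicate 1 and 1 with scaling by total counts, and the list's median turned to -0.28 with that scaling, to -0.065 without BDL replicate 2 and to -0.03 without control replicate 2.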
